A study of Mus musculus with 6 samples.

Results

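A pair of intervals of mouse chromosome 5, from 112000001 to 116000000 (first interval) and from 122000001 to 124000000 (second interval), is described here for its level of 5-hydroxymethylcytosine (5hmC) in mice that lack Tet1 (knockout, KO) and in wild-type mice (WT). Every region of the deposited count table that starts in one of them was taken. The first interval holds 718 regions and the second 292, so that the members are 1010 of 192196 regions in the table and of 11756 on chromosome 5. The intervals were selected on the KO to WT contrast of these same libraries, as places where differing regions lie close together. Values of that contrast, including counts of members past a p threshold and the places of windows by such counts, are therefore given as a description only, and they support nothing about the intervals. Coordinates are those of the table, in build mm9 per the submitters' processing notes, and the last region on chromosome 5 ends at 152537415, past the 151834684 bases of that chromosome in GRCm38. No mm9 annotation was used here, so the regions were not assigned to genes, exons or introns.

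The 4 5hmC libraries were 2 from Tet1 KO and 2 from Tet1 WT mice, with no other allele or treatment named in the labels. The labels give brain as the source, the study's text speaks of astrocytes cultured from newborn pups, and the deletion was constitutive, present in all cells from the start of life. The labels do not say whether samples 1 and 2 of a genotype were separate animals or cultures, so the spread between them may be technical. In addition 2 input libraries, one per genotype, are listed, which were not analysed here.

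Tet1 is a dioxygenase that oxidises 5-methylcytosine in DNA to 5hmC and then further, a step on the way to the removal of the methyl mark. In neural tissue 5hmC is plentiful and rather stable, lies largely over gene bodies and distal regulatory elements, and is also made by Tet2 and Tet3. In the assay, 5hmC was tagged with a modified glucose carrying biotin, and the tagged fragments were captured and sequenced, so that a count reflects how much captured DNA came from a region and not the share of cytosines that are modified.

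Reads in the table numbered from 16819455 to 19288900 per library, of which the members held 84818 and 87315 in KO samples 1 and 2 and 80431 and 79688 in WT samples 1 and 2. The median member had 51 counts in each KO library and 48 in each WT library. Levels are given as normalised read counts, that is, counts divided by a library size corrected for composition and put on the usual CPM scale, and a floor of 3 counts corresponds to between 0.141 and 0.195 CPM. The biological coefficient of variation, the relative spread between libraries of one genotype beyond counting error, was 0.438 between the KO libraries and 0.219 between the WT libraries over all tested regions.

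The intervals were rich in regions. The first held 179.5 regions per Mb, which covered 10.9% of its length, and the second held 146, which covered 8.91%. The stretch between them, from 116000001 to 122000000, held 114.8 regions per Mb with 6.42% covered, and the rest of chromosome 5 held 71.6 with 3.95% covered. The single regions were otherwise much like those elsewhere. Their median width was 453 bp (range 180 to 6592 bp), against 418 bp in the stretch between and 428 bp in the rest of the chromosome. Among the 965 members that passed the filter on low counts, the median level in WT was 2.78 CPM, against 2.65 CPM in the stretch between and 2.75 CPM in the rest of the chromosome. The middle 80% of these members lay between 1.16 and 9.95 CPM in WT. The 45 members that did not pass had between 1 and 46 counts over the 4 libraries together, and no single library had more than 24 counts in any of them.

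The 3 regions of highest level in WT in each interval showed little difference between the genotypes. Levels were not corrected for width, and these regions were wide, from 1704 to 6592 bp. They are therefore not necessarily the places where 5hmC was densest per base, and nothing is said here about those. In the first interval the highest level in WT was at chr5:114818892-114825483, a region of 6592 bp with 72.8 and 107.4 CPM in KO samples 1 and 2 and 79.3 and 89.1 CPM in WT samples 1 and 2. Both WT values lay between the KO values, and the log2 fold change (KO over WT) was 0.10 ± 0.29 (SE, n = 2 per genotype). The next in WT were chr5:112708212-112711204, with 29.4 and 56.5 CPM in KO and 41.1 and 47.1 CPM in WT, and chr5:115992451-115995160, with 27.6 and 41.4 CPM in KO and 36.1 and 40.9 CPM in WT. In each of the 3 regions KO sample 1 was the lowest library and KO sample 2 the highest. The second interval was led by chr5:122751967-122755044, with 35.1 and 49.2 CPM in KO and 40.8 and 41.6 CPM in WT (log2 fold change 0.03 ± 0.28, SE). Its next regions, chr5:123220038-123222029 and chr5:123775681-123777384, had log2 fold changes of 0.01 ± 0.27 and 0.13 ± 0.27 (SE). KO sample 1 was the lowest library and KO sample 2 the highest there as well. That order rested on the scaling: with total counts it held in 1 of the 6 regions named in this paragraph, chr5:112708212-112711204.

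With the same scaling, the same order held for the intervals as a whole. Summed over its 681 tested regions, the first interval had 2736 and 4049 CPM in KO samples 1 and 2. In WT samples 1 and 2 it had 3014 and 3273 CPM. In the second interval the sums over 284 tested regions were 1233, 1620, 1274 and 1348 CPM in the same order. The genotypes thus overlapped in both intervals, since the WT libraries lay between the KO libraries. The mean sum was 3392 ± 929 CPM in KO and 3144 ± 183 CPM in WT in the first interval, and 1426 ± 274 and 1311 ± 52.3 CPM in the second (SD, n = 2 each). On the log2 scale KO was above WT by 0.11 in the first interval and by 0.12 in the second, less than the spread between the KO libraries. The direction turned with the KO library used. Without KO sample 2 the difference was -0.20 and -0.09, and without KO sample 1 it was 0.37 and 0.31.

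The gap between the KO libraries was wider in the intervals than in the rest of chromosome 5, though not wider than over the whole table when levels were summed. For KO sample 2 over KO sample 1, sums of tested regions stood at ratios of 1.48 in the first interval and 1.31 in the second. The ratio was 1.25 in the stretch between, 1.11 in the rest and 1.51 over the whole table. For WT sample 2 over WT sample 1 the ratios were 1.09, 1.06, 1.11, 1.01 and 1.25. KO sample 2 was above KO sample 1 in 72.1% of the tested members, against 63.0% of tested regions in the stretch between, 51.3% in the rest of the chromosome and 50.2% of all tested regions. Which KO library was higher in absolute terms depended on the scaling. With CPM taken from the total count, all 1010 members, tested or not, summed to 4872 and 4618 CPM in KO samples 1 and 2. In WT samples 1 and 2 they summed to 4782 and 4131 CPM. Shares within chromosome 5 do not depend on scaling, and of all its counts the members held 9.17% and 11.4% in KO samples 1 and 2, and 9.61% and 10.2% in WT samples 1 and 2. By this measure too the WT libraries lay between the KO libraries.

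**Figure D1:**
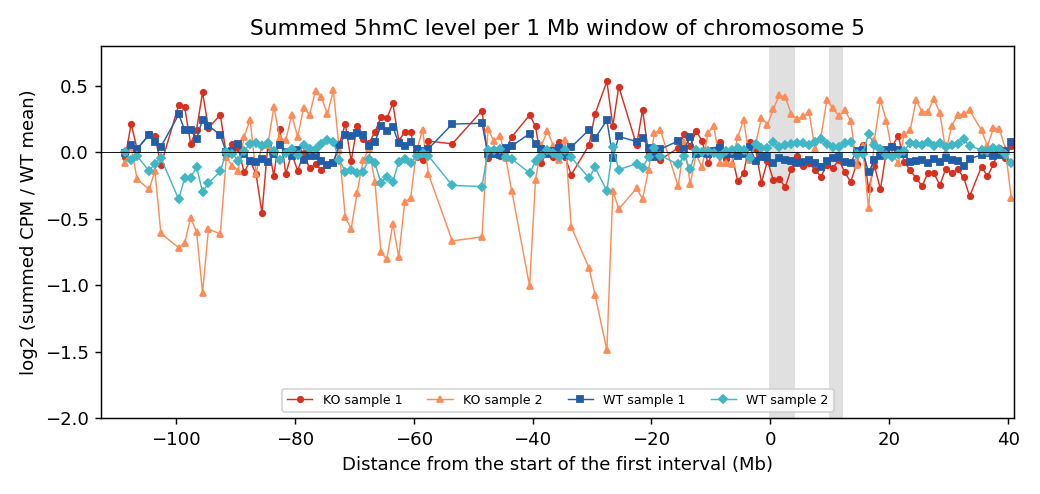
5hmC level in each library, summed over the tested regions of each 1 Mb window of chromosome 5 with at least 10 of them. The y axis is the log2 ratio to the mean of both WT libraries. The x axis is the distance from the start of the first interval in Mb. Grey bands mark the intervals, where KO sample 2 lies above and KO sample 1 below both WT libraries, and windows elsewhere with few regions show KO sample 2 far below.

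The gap also moved with the density of regions along the chromosome. Over the 105 windows of 1 Mb on chromosome 5 with at least 30 tested regions, the number of regions listed and the median log2 ratio of KO sample 2 to KO sample 1 had a Spearman rho of 0.54. For WT sample 2 over WT sample 1 rho was 0.52. All windows share the same 4 libraries, so these values describe those libraries. The 6 windows of the intervals listed between 137 and 216 regions, and 19 windows of the rest of chromosome 5 were at least as dense as the sparsest of them, with up to 196 regions. In those 19 windows the ratio of summed levels of KO sample 2 to KO sample 1 ran from 0.959 to 1.5, with a median of 1.21, whereas in the 6 windows it ran from 1.26 to 1.60, with a median of 1.41. This set of dense windows was chosen after the data were seen. The part of region density and of the library gap in the differences described next was not tested.

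No member passed an adjusted p of 0.05 in the quasi-likelihood test of edgeR, nor did any of all 176957 tested regions (0%). By DESeq2, 2 members passed (6 of all regions). At an unadjusted p under 0.05 there were 69 of 965 members (7.15%), against 2.81% of all tested regions. The 42 that were higher in KO made up 4.35% of the tested members, against 1.54% of all regions, and the 27 that were lower made up 2.80%, against 1.27%. Since the intervals were chosen on this contrast, nothing is read from those shares. In the first interval the split was 26 higher and 23 lower, and in the second 16 higher and 4 lower. With total counts as the scaling there were 35 (3.63%), against 1.12% of all tested regions. Leaving out a library also moved the share, in the same direction in the members as over all tested regions.

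Along the intervals these regions were spread unevenly. In 1 Mb windows of the first interval, the share of tested regions at an unadjusted p under 0.05 was 5.39% from 112000001, 7.93% from 113000001, 5.71% from 114000001 and 9.83% from 115000001. In the second interval it was 1.97% from 122000001 and 12.9% from 123000001, so that 17 of its 20 such regions lay in its distal Mb. Among 1716 windows of all chromosomes with at least 30 tested regions, where the median share was 2.46%, these windows stood at places 195, 44, 156, 18, 1036 and 10. The proximal window of the second interval was thus below the median window. In the stretch between the share was 4.88% (31 of 635), and in the rest of the chromosome 2.80% (256 of 9137). By 1 Mb window the stretch between ran from 2.56% to 8.93%. It was highest from 117000001 (8.93%, 5 of 56) and from 121000001 (8.33%, 7 of 84), within the range of the windows of the intervals. The window from 110000001 to 111000000, which lies before the first interval and outside both, had 10.7% (6 of 56 tested regions, 5 of them lower in KO). In the 19 windows of the rest of the chromosome that were at least as dense in regions, the share ran from 0% to 4.35%.

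**Figure D2:**
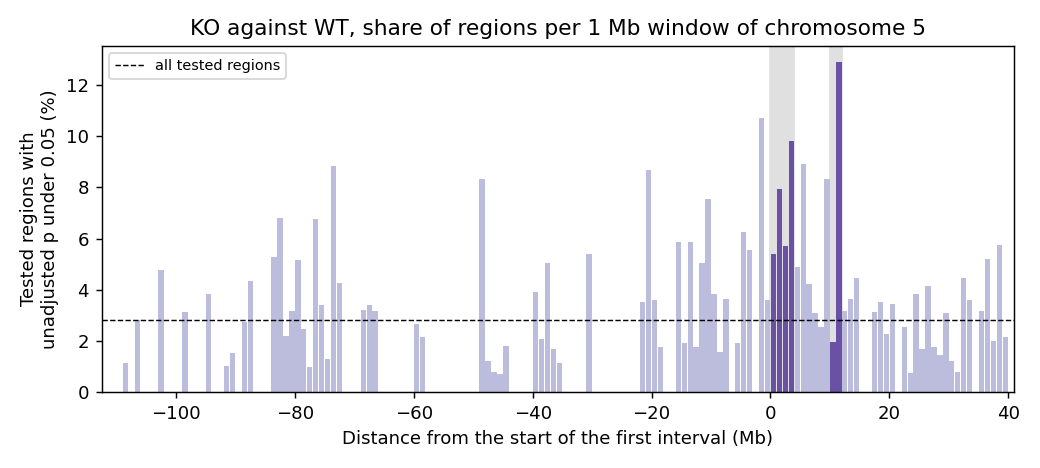
Percentage of tested regions with an unadjusted p under 0.05 for KO against WT (y axis) in each 1 Mb window of chromosome 5 with at least 30 tested regions, against distance from the start of the first interval in Mb (x axis). Dark bars in the grey bands are the windows of the intervals (1.97% to 12.9%), light bars are the other windows, and the dashed line is the share over all tested regions, 2.81%.

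Taken by the libraries themselves, both KO libraries were above both WT libraries in 183 of 965 tested members (19.0%), against 15.3% of all tested regions. Both were below in 154 (16%), against 15.6% of all tested regions. In the remaining 628 the genotypes overlapped. The second interval leaned to higher levels in KO, with 60 regions above (21.1%) and 36 below (12.7%), whereas the first had 123 above (18.1%) and 118 below (17.3%). The stretch between had 18.7% above and 17.6% below, close to the first interval. The median log2 fold change was 0.09 over the first interval and 0.10 over the second, against 0.03 in the stretch between, 0.02 in the rest of the chromosome and 0.02 over all tested regions. Members above in KO were wider, with a median of 484 bp, than those below, with 420 bp, and the medians over all tested regions were 502 and 422 bp.

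Both sample numbers gave a ratio of KO to WT of their own, sample 1 over sample 1 and sample 2 over sample 2. Over the 965 tested members the log2 ratios had a Pearson r of 0.24, and without the pair of regions near 0 in WT that is described below r was 0.17. Over the rest of chromosome 5 r was -0.02 and over all tested regions -0.01. These are values across regions of the same 4 libraries, and regions are not independent replicates. Intervals chosen for gathered differences between the genotypes favour regions whose ratios go the same way in both sample numbers, so nothing is read from r or from the next counts. A ratio of at least 2 in the same direction in both sample numbers (log2 of 1, after adding 0.1 CPM) was seen in 24 members, 13 higher and 11 lower, or 2.49% of those tested, against 1.52% of all tested regions. Opposite ratios of that size were seen in 7 of the 965 members and in 2758 of all 176957 tested regions.

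**Figure D3:**
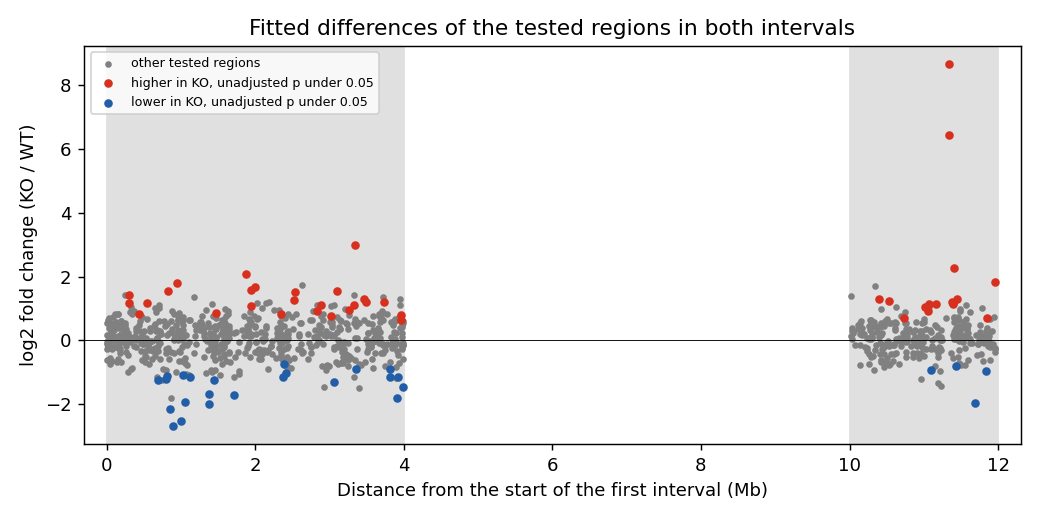
Fitted log2 fold change of KO over WT (y axis) for the 965 tested members, against distance from the start of the first interval in Mb (x axis), with the intervals in grey. Red and blue points have an unadjusted p under 0.05 and are higher or lower in KO, and a pair of points at 6.44 and 8.66 in the second interval stands above the rest, the next highest of that interval being 2.26.

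In the first interval the differences of largest size among regions averaging 20 counts or more went in both directions. The region highest in KO by this rule was chr5:115342063-115342351, with 1.5 and 4.36 CPM in KO and 0.374 and 0.349 CPM in WT. The WT libraries were close together there and the KO libraries nearly 3-fold apart in these scaled levels. KO sample 1 had 32 counts and KO sample 2 had 67, against 7 and 6 in WT. With total counts the KO levels were closer, at 1.84 and 3.54 CPM, so the size of that gap depended on the scaling. Its log2 fold change was 2.98 ± 0.77 (SE). At chr5:112949808-112950117 the levels were 1.36 and 4.68 CPM in KO and 0.908 and 0.814 CPM in WT, so that KO sample 1 was nearer to WT than to the other KO library. At chr5:113950107-113950423, by contrast, both KO libraries stood well above WT, with 2.72 and 4.55 CPM against 0.855 and 1.57 CPM (log2 fold change 1.58 ± 0.56, SE). The other 3 were chr5:113992973-113993356, chr5:112822588-112823114 and chr5:115105191-115105450, with log2 fold changes of 1.68, 1.56 and 1.53. In all 6 KO sample 2 was the highest library, and with total counts in 5 of them.

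Among the lower ones, chr5:112896961-112897300 had 0.281 and 0.650 CPM in KO, from 6 and 10 counts, and 2.72 and 3.20 CPM in WT, from 51 and 55 counts. Each genotype was narrow here compared with the difference between them, which was -2.69 ± 0.70 on the log2 scale (SE). The region chr5:113712078-113712497 rested on more reads, with 34 and 29 counts in KO against 118 and 86 in WT. Its levels of 1.59 and 1.89 CPM against 6.30 and 5.00 CPM gave a log2 fold change of -1.70 ± 0.44 (SE). A neighbouring pair, chr5:113374436-113374681 and chr5:113375525-113375881, was lower in both KO libraries, with 0.469 and 0.455 CPM against 1.44 and 2.33 CPM in the former and 0.797 and 0.455 CPM against 2.03 and 2.09 CPM in the latter. At chr5:113054927-113055145 KO sample 2 had 1 count and KO sample 1 had 18, against 33 in each WT library. The last by this rule, chr5:115397555-115397769, had a log2 fold change of -1.49 ± 0.74 (SE).

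The second interval held the regions with the largest fold differences on the higher side. At chr5:123334556-123335064 there were 70 counts in KO sample 1 and 118 in KO sample 2, against 0 in WT sample 1 and 2 in WT sample 2, or 3.28 and 7.67 CPM against 0 and 0.116 CPM. The ratio of KO to WT was 92.0 with an exact 95% interval from 25.1 to 765, which covers counting error only and not the choice of the region for its difference. At chr5:123337125-123337784 there were 78 and 29 counts in KO and none in either WT library, or 3.66 and 1.89 CPM in KO. Against a floor of 3 counts per library in WT, 0.174 CPM in the shallower scaled WT library, its mean KO level was at least 15.9-fold higher. The KO libraries were in opposite order in these 2 regions, KO sample 2 being the higher in the former and KO sample 1 in the latter.

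The pair lies close together, 2060 bp apart in a span of 3229 bp. The nearest region before it is 33240 bp away and the nearest after it 4825 bp, while the median gap between neighbouring regions in the intervals was 2822 bp. Only 5 of all 192196 regions (0.0026%) had at most 3 counts in each library of one genotype and at least 20 in each of the other. Of those 5, this pair was the part near 0 in WT, and the 3 others, on chromosomes 3, 11 and Y, were near 0 in KO. By that rule both libraries of a genotype had to agree, so their agreement at the pair is no finding of its own. The counts at the pair were at most 2 per library in WT and at least 29 in KO.

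The regions around the pair did not share this pattern. The region before it, chr5:123301009-123301315, had 3.42 and 2.47 CPM in KO and 1.82 and 1.80 CPM in WT. The region after it, chr5:123342610-123342789, had 5 counts or fewer in every library. At chr5:123359574-123359793 the genotypes overlapped, with 2.44 and 0.585 CPM in KO and 1.82 and 2.27 CPM in WT. Further on, chr5:123375626-123376103 had 2.67 and 5.33 CPM in KO against 1.44 and 1.98 CPM in WT, and chr5:123386296-123386734 had 3.38 and 2.99 CPM against 1.12 and 1.69 CPM. In these last regions the KO libraries were again above the WT libraries, but with clear signal in both genotypes. Without the pair, the SD of the log2 fold changes in the second interval was 0.54, against 0.83 with it, 0.63 in the first interval and 0.54 in the rest of chromosome 5.

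**Figure D4:**
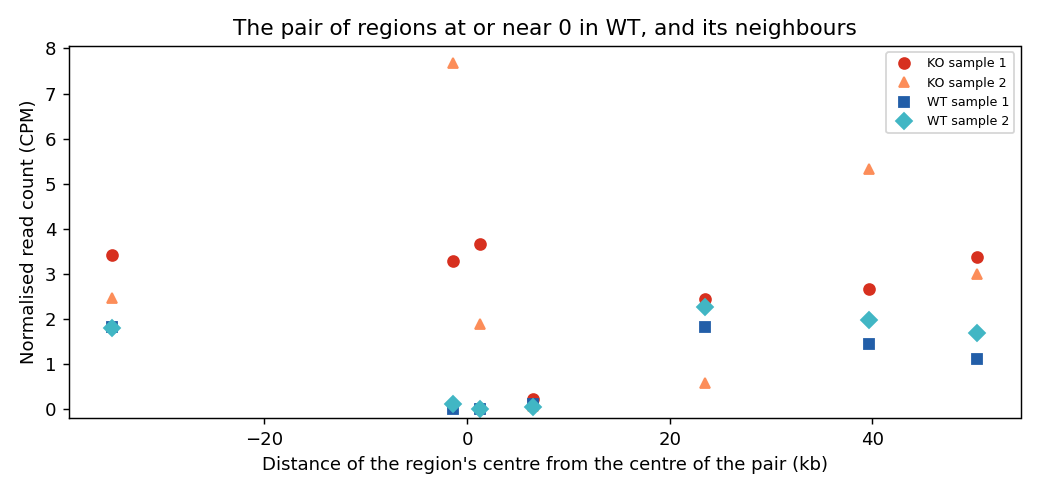
Normalised read count in CPM (y axis) of the pair of regions and of every region within about 50 kb of it, in each of the 4 libraries, against distance from the centre of the pair in kb (x axis). At the pair both WT libraries are at or near 0 and the KO libraries lie between 1.89 and 7.67 CPM, whereas WT has signal at 4 of the 5 neighbouring regions.

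The other regions of the second interval differed less. The higher ones were led by chr5:123401644-123401999, with 1.92 and 2.08 CPM in KO and 0.588 and 0.233 CPM in WT, and by chr5:123957725-123958110, with 2.39 and 3.97 CPM against 0.855 and 0.931 CPM (log2 fold changes 2.26 ± 0.81 and 1.82 ± 0.59, SE). At chr5:122339488-122339785 the WT libraries were 2 and 18 counts, so that WT sample 2, at 1.05 CPM, was level with KO sample 1, at 1.08 CPM. Among regions averaging 20 counts or more, the 6 lower ones were smaller in size than those of the first interval. The best covered of these 6 was chr5:123099268-123099799, with 100 and 99 counts in KO and 192 and 190 in WT, or 4.69 and 6.44 CPM against 10.3 and 11.1 CPM. Its log2 fold change was -0.94 ± 0.33 (SE), and the genotypes did not overlap. At chr5:123831699-123832384 the levels were 3.42 and 3.64 CPM in KO against 7.27 and 6.46 CPM in WT (log2 fold change -0.96 ± 0.37, SE). The largest 2 of the 6 in size, chr5:123233644-123233997 and chr5:123185866-123186110, had log2 fold changes of -1.42 and -1.34, and in both KO sample 1 lay nearer to WT sample 1 than to KO sample 2. With total counts the genotypes still did not overlap in any of the 24 regions so chosen in the intervals.

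**Figure D5:**
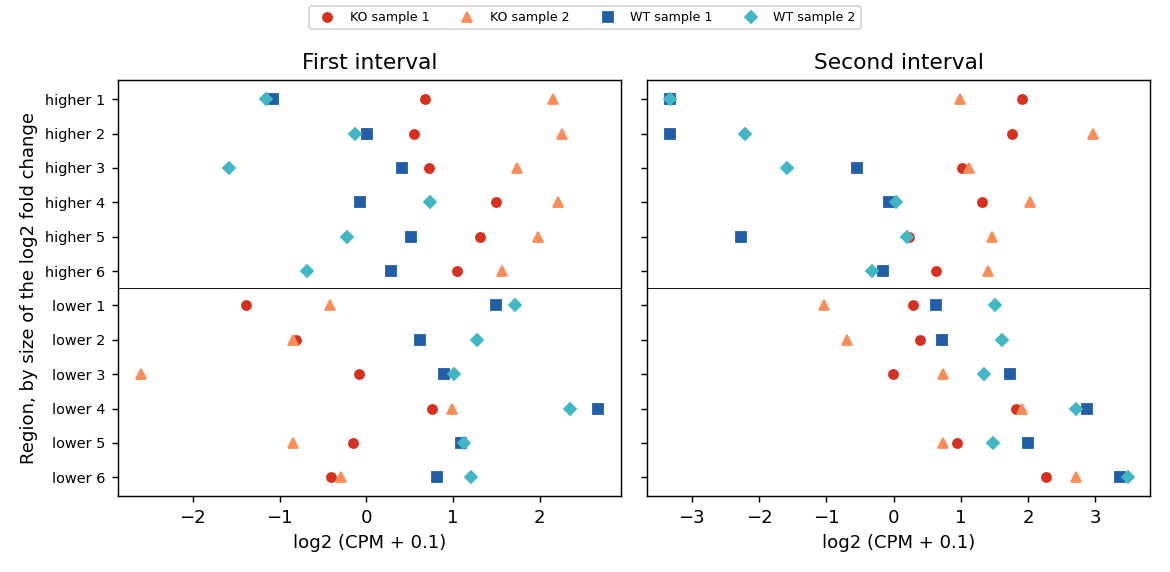
Level of the 6 regions with the largest difference in each direction in each interval, as log2 (CPM + 0.1) in the 4 libraries (x axis), ordered by the size of the fitted log2 fold change (y axis). KO and WT points do not overlap in any row by the rule of choice, and the first and second rows of the second interval are the pair of regions at or near 0 in WT.

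For comparison, regions with the largest differences outside the intervals are given, under the same limit of 20 counts on average. The stretch between has 635 tested regions and the rest 9137, against 965 in the intervals, so extremes cannot be compared on equal terms. In the stretch between, chr5:118664726-118665033 had 1.55 and 2.80 CPM in KO and 0.267 and 0.640 CPM in WT (log2 fold change 2.24 ± 0.81, SE), and chr5:118160103-118160356 had 0.422 and 0.715 CPM against 1.87 and 1.69 CPM (-1.65 ± 0.78). The highest in the rest of chromosome 5, chr5:28789619-28790134, had 1.36 and 5.66 CPM in KO and 0.801 and 0.640 CPM in WT (log2 fold change 2.26 ± 0.70, SE). The next, chr5:144287355-144287775, had 2.91 and 4.10 CPM in KO and 0.748 and 0.756 CPM in WT (log2 fold change 2.2 ± 0.58, SE). The lowest there under this limit, chr5:125055196-125055503, had 0.469 and 0.390 CPM in KO and 2.24 and 3.61 CPM in WT (log2 fold change -2.74 ± 0.69, SE).

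Neighbouring regions sometimes differed in the same direction. Runs of at least 3 consecutive tested regions with genotypes that did not overlap, all on one side, numbered 10 in the first interval (4 higher and 6 lower in KO) and 4 in the second (all higher). They took in 4.70% and 4.93% of the tested regions, against 4.25% in the stretch between and 3.45% in the rest of the chromosome. Runs were not counted over all tested regions, and the intervals were chosen on this contrast, so nothing is read from these shares. The longest run in the intervals had 5 regions over 52.9 kb, from 123034445 to 123087341. Its summed level was 32.4 and 37.5 CPM in KO against 19.6 and 25 CPM in WT. Runs reached 5 regions in the stretch between as well, and 6 in the rest of the chromosome. In the first interval the longest runs had 4 regions. One, from 113054927 to 113069758, had 7.69 and 6.83 CPM in KO against 11.5 and 14.1 CPM in WT, and the other, from 115719049 to 115737191, had 9.0 and 14.2 CPM in KO against 5.13 and 6.05 CPM in WT.

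In windows of 250 kb, non-overlapping regions were most numerous from 115750001 to 116000000 in the first interval and from 123250001 to 123500000 in the second. The former had 11 higher (22%) and 12 lower (24%) in KO among 50 tested regions. The latter, which contains the pair near 0 in WT, had 15 higher (38.5%) and 4 lower (10.3%) among 39. Over all tested regions the shares were 15.3% higher and 15.6% lower. Both windows were picked for having the most such regions, so nothing is read from their shares.

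Single regions at the edges had wide errors, and no change at a limit can be read from them. The first region inside the first interval, chr5:112002325-112002925, had a log2 fold change of 0.53 and the nearest outside, chr5:111999445-112000411, one of 0.13. At its other end the last region inside, chr5:115996723-115997459, had 0.54 and the nearest outside, chr5:116003713-116004242, had -0.73. For the second interval the values were 0.15 inside at chr5:122014755-122015167 and 0.53 outside at chr5:121986759-121987688, and at the other end -0.35 inside at chr5:123960732-123961294 and -1.29 outside at chr5:124033318-124033624. The SE of these 8 values lay between 0.38 and 0.78.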

How the data were processed

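The authors deposited whole-number read counts, not normalised, for 1 list of regions in the 4 5hmC libraries. Per the submitters' processing notes Bowtie2 2.2.6 and build mm9 were used, while the steps that defined the regions, counted reads and treated duplicates and reads matching several places are not given in the sources used here. The members and the lists of regions were chosen with earlier results of these data known. Members were the regions on chromosome 5 that start in the intervals.

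Libraries were grouped by genotype from the labels. The filterByExpr function (minimum count 10, minimum total 15) took out thinly covered regions, TMM factors scaled the libraries, and KO was compared with WT over all 176957 remaining regions with the quasi-likelihood method of edgeR 4.0.16 (R 4.3.3) and Benjamini-Hochberg adjustment over all of them. The fit had all 4 libraries and no covariate. Fold changes carry an SE taken from the size of the fold change and its F statistic. Intervals of ratios are exact at 95%, and these and the floor of 3 counts cover counting error only, since reads without molecular identifiers are not independent molecules.

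Regions named in the text were, in each interval, up to 6 higher and 6 lower in KO with the largest fold change among those whose genotypes did not overlap and whose mean count was at least 20, the 3 of highest level in WT, the regions at the edges, the regions near 0 in one genotype, and up to 2 higher and 2 lower in the stretch between and in the rest of the chromosome. Neighbours of the pair near 0 were named after their values were seen, as were the longest runs and the windows from 110000001, 117000001 and 121000001. Alternatives were DESeq2 1.42.0, total-count and autosomal scaling, other low-count filters, a block for the sample number, a stricter limit for regions near 0 and leaving out each library. No sequence is printed, because the reference at hand was GRCm38. Figures were drawn with matplotlib 3.10.9.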

Additional observations from a re-analysis of the deposited data

How the results depend on the processing

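With 2 libraries per genotype, of which the KO libraries differed more than the WT libraries, counts of members past a threshold depended on the libraries used. At an unadjusted p under 0.05 the count was 69, it was 35 with total counts as the scaling, and it ran from 15 to 275 when 1 library was left out (15 without WT sample 1, 19 without WT sample 2, 127 without KO sample 2 and 275 without KO sample 1). The same settings gave 1.12%, 0.658%, 0.557%, 11.2% and 23.5% of all tested regions. The count of members stayed within 1.5 times with DESeq2 (53), with the sample number as a block (86), with no low-count filter (75), with regions averaging 20 counts or more (63) and with autosomal scaling (69). Over all tested regions these settings gave 1.97%, 3.92%, 2.92%, 2.78% and 2.81%, against 2.81% in the main fit. At an adjusted p under 0.05 0 members passed. With no low-count filter 1 did, or 0.0990% of those tested (chr5:123334556-123335064), with DESeq2 and with the block 2 did, or 0.207% (the pair near 0 in WT in both), and when a library was left out between 0.104% and 12.02% did. When a genotype kept a lone library, that library was assumed to vary like the other genotype. Without KO sample 1 they were 100 higher and 16 lower in KO, and without KO sample 2 they were 4 and 20. With each library left out, more of all tested regions also passed an adjusted p of 0.05 than in the main fit. Nothing about the intervals is therefore read from the counts and shares of members that passed in those fits. The cause of the changes with the library left out was not tested.

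The labels do not say that a sample number marks a shared animal or batch. Deviations from the genotype means of same-numbered libraries had a correlation of 0.16 over all tested regions and -0.07 over the members, and with the block 79 of all regions passed an adjusted p under 0.05, against 0 without it. With at most 1 count against at least 10 per library, 1 member was near 0 in one genotype, in place of 2, and 10 regions of the table. Members higher in KO with no overlap numbered from 170 to 227 over the scalings and filters, and those lower from 140 to 161. The shares over all tested regions ran from 14.6% to 15.3% higher and from 11.2% to 16.1% lower. Summed levels of the intervals moved by less than 1 SD between the KO libraries in the scalings and filters, and their difference had the other sign only when KO sample 2 was left out. Of 368 values of named regions under the alternatives, 44 moved by more than the spread between libraries and 16 had the other sign, of which 9 were without KO sample 2.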
